A study of Mus musculus with 10 samples.

Results

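Class I antigen presentation and the immunoproteasome were followed through 10 genes, namely B2m, H2-K1, H2-D1, Tap1, Tap2, Tapbp, Psmb8, Psmb9, Psmb10 and Psme2. A probe set, the group of oligonucleotides on the array that measures 1 transcript, was used when the platform annotation named 1 gene and that gene was in the list. This gave 16 probe sets of 9 genes, out of 12422 probe sets that are not array controls. The 2 probe sets of Psme2 were annotated to its copy Psme2b as well, so that Psme2, a subunit of the proteasome cap PA28, was not measured here by a probe set of its own.

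The tissue was gastrocnemius, the large calf muscle, of male mice aged 16 weeks. One array was run on total RNA from each of 5 mdx samples and 5 control samples. The mdx strain carries a mutation of the dystrophin gene Dmd on chromosome X, and its muscle goes through cycles of fibre death and repair. The control mice were described only as normal, and their strain, and hence whether both groups carry the same class I alleles, was not given in the sources used here. Nothing in the labels states that each array stands for its own mouse, so a p-value covers the spread among these 10 samples only, some of which may be technical. The number of arrays limits the precision.

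Nearly every cell shows fragments of its own proteins to killer T cells on class I molecules. The proteasome cuts the proteins, the Tap1 and Tap2 transporter carries the pieces into the endoplasmic reticulum, Tapbp (tapasin) holds the empty class I molecule beside the transporter, and a heavy chain with beta-2 microglobulin takes the peptide to the cell surface. Interferon gamma switches the proteasome's catalytic subunits Psmb5, Psmb6 and Psmb7 for Psmb8, Psmb9 and Psmb10, which changes the peptides made. Resting skeletal muscle fibres are known for low class I levels, and inflamed muscle for higher ones.

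Of these 10 genes, 7 lie on chromosome 17, in or near the mouse major histocompatibility complex. B2m lies on chromosome 2 and Psmb10 on chromosome 8, while Psme2 lies on chromosome 14. The upstream sequences below are those of RefSeq, build GRCm38.p6, and are shown because B2m and both heavy chains, whose leading probe sets were the brightest of these genes, carry the same kinds of motif. Capitals mark matches to 3 motifs of factors known to act on class I genes: the core site of interferon regulatory factors (IRF), AANNGAAA, the cyclic AMP response element half-site (CRE), TGACG, and the NF-kB consensus, all searched on both strands in the 250 bases before each start.
H2-K1: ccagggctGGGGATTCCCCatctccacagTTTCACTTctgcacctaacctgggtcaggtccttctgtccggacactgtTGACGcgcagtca
H2-D1: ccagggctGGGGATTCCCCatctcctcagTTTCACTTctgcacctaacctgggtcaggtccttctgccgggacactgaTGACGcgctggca
B2m: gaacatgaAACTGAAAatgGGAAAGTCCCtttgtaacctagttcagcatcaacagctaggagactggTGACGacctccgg

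The H2-K1 stretch is chr17:34000376-34000466 on the minus strand and the H2-D1 stretch is chr17:35262915-35263005 on the plus strand. They have 85 of 91 bases in common (93.4%) and carry the NF-kB, IRF and CRE matches in the same order. The H2-K1 window belongs to 1 of its annotated starts. The B2m stretch, chr2:122147542-122147621 on the plus strand, holds the same 3 kinds of match, with the IRF core first. IRF cores stood in 21.3% of the 32851 RefSeq promoter windows, CRE half-sites in 17.8% and NF-kB consensus sites in 5.0%. A match describes the letters and does not show that a factor binds there.

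Tap1 and Psmb9 are divergent neighbours whose annotated starts lie 225 bases apart. The sequence between them, chr17:34187331-34187555 on the strand of Tap1, is shown since both genes moved the same way. It held 1 CRE half-site and none of the other 2 motifs.
Tap1-Psmb9: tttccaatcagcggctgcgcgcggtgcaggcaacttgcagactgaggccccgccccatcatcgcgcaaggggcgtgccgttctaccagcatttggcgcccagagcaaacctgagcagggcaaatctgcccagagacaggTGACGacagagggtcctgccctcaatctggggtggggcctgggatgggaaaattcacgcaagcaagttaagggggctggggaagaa

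No match to the 3 motifs was found in the windows of Tapbp, Psmb8 and Psmb10. Tap2 had no entry in the promoter table.

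Values are intensities in array units, scaled by array, so each is a level set against the rest of that array. For the test, log2 of the intensity plus 373 was taken, and a log2 change is mdx minus control on that scale with its standard error (SE). It understates the change of dim genes. Mean intensities are given ± SD over 5 arrays. A probe set was tested when it exceeded 134 on at least 5 of the 10 arrays, and was called changed at a Benjamini-Hochberg adjusted p below 0.05 in limma, over all 7612 tested probe sets.

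Of the 16 probe sets 14 were tested, and 10 of them, annotated to 7 genes, were called higher in mdx and 0 lower. The heavy chain probe sets among these 10 all match several members of the gene family. They are therefore not separate measures of H2-K1 and H2-D1. Over all tested probe sets 33.6% were called, with 15.8% higher. By gene, 34.7% of all genes tested were called. The median change over the 5764 genes tested, each by its brightest probe set, was -0.04. Psmb9 passed the filter on low values through its mdx arrays alone, so its difference was in part given by that filter. The groups did not overlap for 10 of the 14 tested probe sets, the same 10 that were called, all with mdx higher. Over all tested probe sets the groups did not overlap for 25.1%, with mdx higher for 12.3%. By gene the shares were 26.3% and 12.7%.

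**Figure D1:**
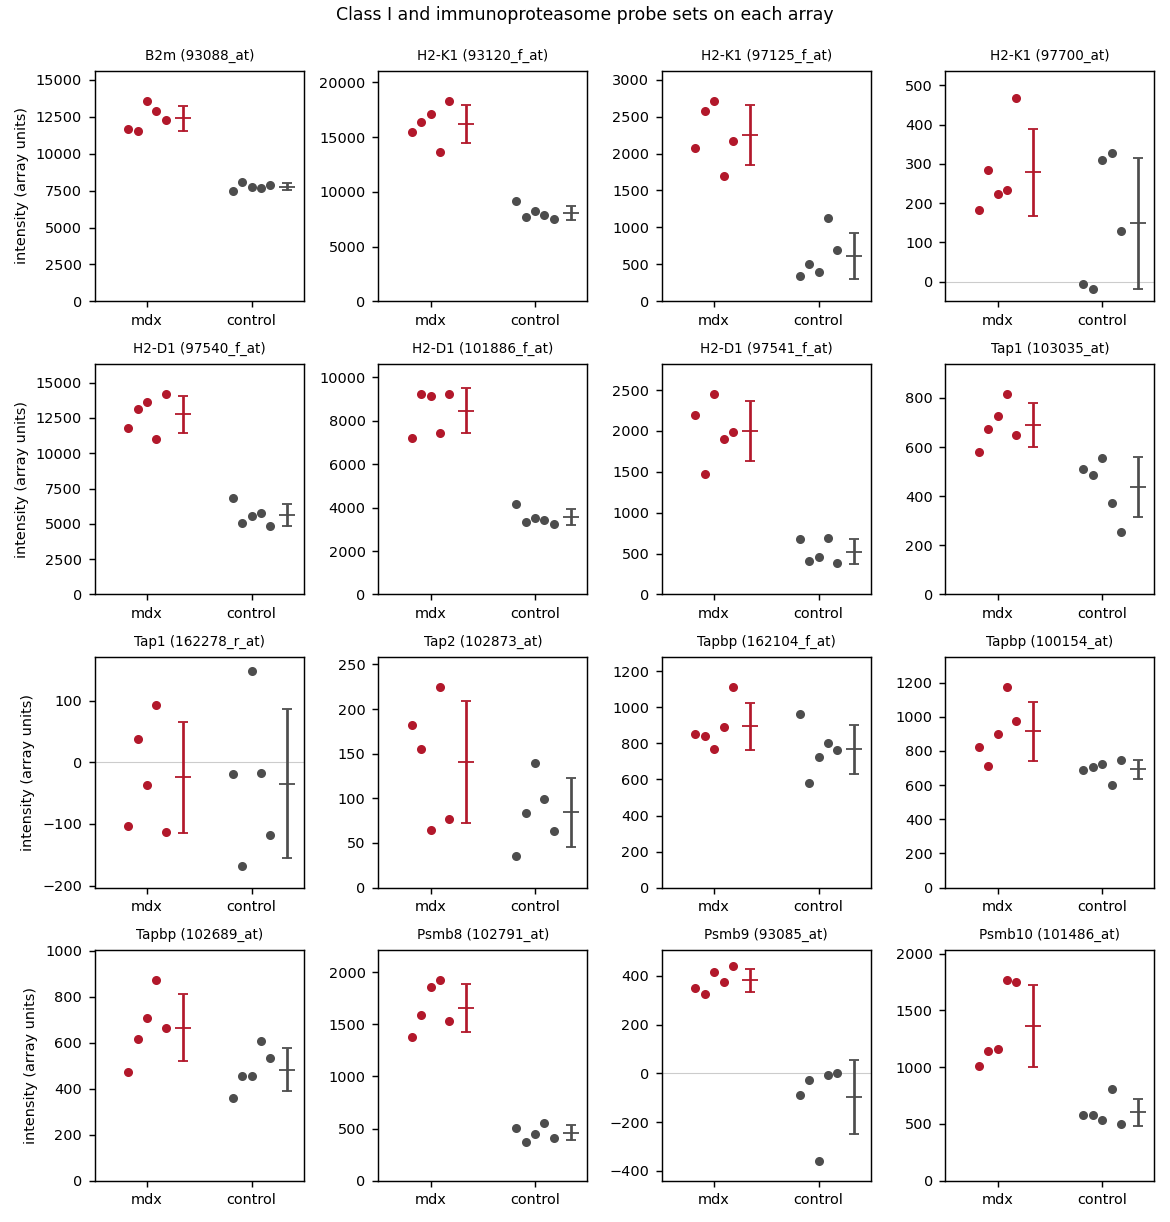
Intensity (array units, linear axis) of each of the 16 probe sets on 5 mdx arrays (red) and 5 control arrays (grey), with the mean and SD beside the points. The mdx points lie above every control point for 10 probe sets, while the 3 of Tapbp, Tap2, 1 of Tap1 and 1 of H2-K1 overlap.

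B2m, the light chain that every class I molecule needs, was higher in mdx. Its intensities were 11665, 11567, 13591, 12867 and 12278 on the mdx arrays and 7469, 8070, 7747, 7662 and 7880 on the control arrays. Every mdx array was above every control array, and the control arrays lay close together. The means were 12394 ± 849 in mdx and 7765 ± 226 in control, a ratio of 1.60 (log2 change 0.65, SE 0.07, limma adjusted p = 1.05e-05).

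The heavy chain H2-K1, 1 of the polymorphic chains that hold the peptide, was measured by 3 probe sets. The brightest, 93120_f_at, read 15457, 16376, 17133, 13690 and 18331 in mdx and 9154, 7684, 8224, 7842 and 7501 in control. The groups were apart on every array, with means of 16197 ± 1753 in mdx and 8081 ± 656 in control, a ratio of 2.0 (log2 change 0.97, SE 0.09, limma adjusted p = 3.93e-06). The dimmer 97125_f_at averaged 2249 ± 406 in mdx and 613 ± 316 in control, a ratio of 3.67 and a log2 change of 1.45. The third, 97700_at, was dim and did not pass, at 182 to 468 in mdx and -19.3 to 328 in control (log2 change 0.35, limma adjusted p = 0.198). The H2-K1 probe sets therefore gave unequal changes.

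The 3 probe sets of H2-D1, the second heavy chain, were all higher in mdx. The brightest, 97540_f_at, read 11813, 13130, 13615, 11002 and 14205 in mdx and 6845, 5087, 5541, 5754 and 4882 in control. No control array came near the mdx range. Its means were 12753 ± 1318 in mdx and 5622 ± 767 in control, a ratio of 2.27 (log2 change 1.13, SE 0.10, limma adjusted p = 3.03e-06). Ratios of the other H2-D1 probe sets were 2.38 for 101886_f_at, at 8457 ± 1040 in mdx and 3554 ± 367 in control, and 3.82 for 97541_f_at, at 2000 ± 365 in mdx and 523 ± 151 in control. The suffix f marks probe sets whose probes match several members of a gene family, and 5 of the 6 heavy chain probe sets carry it. The heavy chain probe set without it, 97700_at of H2-K1, is the one that did not pass. Class I heavy chains are near-identical in long stretches, so signal of H2-K1, H2-D1 and their relatives could not be told apart. A further 3 probe sets annotated to H2-K1 or H2-D1 together with other class I genes were not used.

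The heavy chains were also set against the light chain. Within an array, the log2 value of H2-K1 minus that of B2m lay between 0.09 and 0.56 in mdx and between -0.07 and 0.28 in control, so the groups overlapped. For H2-D1 minus B2m the ranges were -0.22 to 0.20 in mdx and -0.65 to -0.12 in control, which also overlapped. The group means of these differences were 0.32 apart for H2-K1 and 0.49 apart for H2-D1. This comparison was chosen after the values were seen and was not tested.

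Among the genes of peptide transport and loading, 1 of 4 tested probe sets was called, that of Tap1. Over all tested probe sets 33.6% were called. Tap1, a chain of the transporter, read 581, 674, 727, 817 and 650 in mdx and 510, 488, 555, 374 and 254 in control by its brighter probe set. The highest control array was just under the lowest mdx array. The means were 690 ± 88.1 in mdx and 436 ± 122 in control, a ratio of 1.58 (log2 change 0.40, SE 0.12, limma adjusted p = 0.0184). The other Tap1 probe set was at background in both groups, between -114 and 93.9 in mdx and between -169 and 149 in control, and was not tested.

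Tap2, the partner chain of Tap1, exceeded the filter on 4 arrays only and was not tested. It read 182, 155, 64.7, 225 and 77.3 in mdx and 35.7, 83.3, 140, 98.8 and 63.7 in control. These values overlapped between the groups and stood around the background level of 157, the SD of noise taken from the median of the values below 0, so a difference of Tap2 was not detectable at this signal.

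Tapbp, the tapasin that bridges transporter and heavy chain, did not pass with any of its 3 probe sets. The first, 162104_f_at, read 770 to 1113 in mdx and 583 to 962 in control, a log2 change of 0.15 (limma adjusted p = 0.293). The others stood at 0.27 for 100154_at (limma adjusted p = 0.0599) and 0.28 for 102689_at (limma adjusted p = 0.0914), and the groups overlapped for all 3. The call depended on the processing: 100154_at passed with equal trimmed means (adjusted p = 0.041) and without mdx replicate 2 (0.0275), and 102689_at without mdx replicate 1 (0.0353).

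The 3 catalytic subunits of the immunoproteasome were all higher in mdx. Psmb8, which takes the place of Psmb5 and cuts after large hydrophobic residues, read 1375, 1585, 1854, 1923 and 1529 in mdx and 504, 376, 452, 555 and 413 in control. The lowest mdx array was more than double the highest control array. The means were 1653 ± 229 in mdx and 460 ± 71.3 in control, a ratio of 3.59 (log2 change 1.28, SE 0.10, limma adjusted p = 1.09e-06).

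Psmb9, which takes the place of Psmb6, read 348, 326, 417, 376 and 439 in mdx and -90.9, -28.7, -360, -7.77 and 0.41 in control. All control arrays were at background, so only a bound can be given. Set against the background level of 157, Psmb9 was at least 2.42-fold higher in mdx (limma adjusted p = 8.08e-07, in a test it entered through its mdx arrays alone). The size of its fitted log2 change, 1.01, was set by the constant added before the log and ranged from 0.59 to 1.77 over the alternatives.

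Psmb10, which takes the place of Psmb7 and lies outside the major histocompatibility complex, read 1009, 1141, 1159, 1766 and 1747 in mdx and 578, 582, 539, 810 and 498 in control. mdx replicates 4 and 5 stood above the other mdx arrays, and control replicate 4 above the other control arrays. The means were 1364 ± 362 in mdx and 601 ± 121 in control, a ratio of 2.27 (log2 change 0.82, SE 0.14, limma adjusted p = 0.000651).

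**Figure D2:**
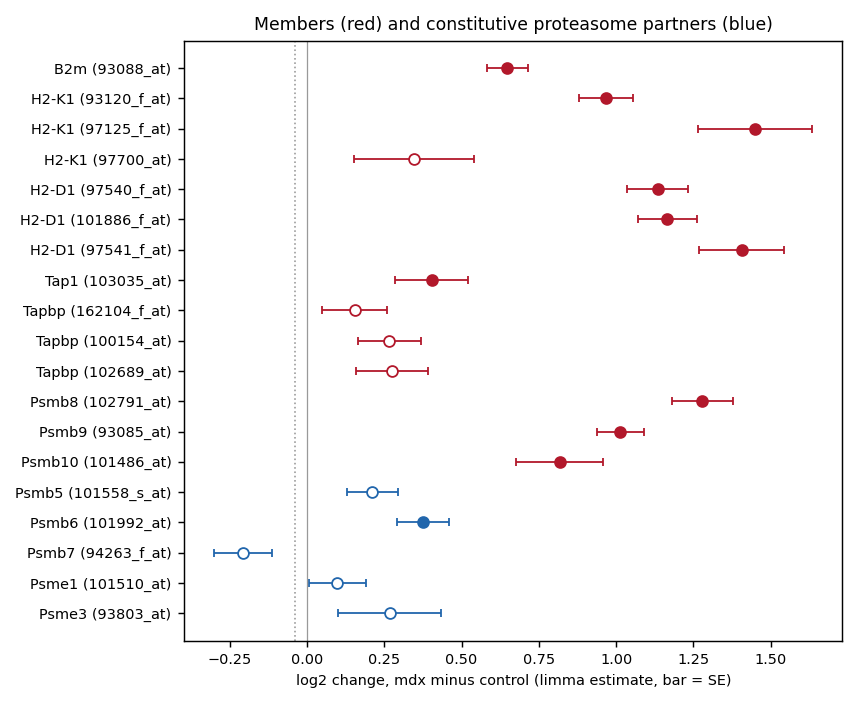
Log2 change, mdx minus control, with its SE (limma) for the 14 tested probe sets of the class I and immunoproteasome genes (red) and for constitutive proteasome subunits and other caps (blue). Filled points passed an adjusted p of 0.05, and the dotted line is the median of all genes tested, -0.04. Heavy chains and immunoproteasome subunits lie to the right, between 0.82 and 1.45 apart from 1 dim H2-K1 probe set, and the 5 blue points, Psmb5, Psmb6, Psmb7, Psme1 and Psme3, lie between -0.21 and 0.38.

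Of the constitutive counterparts, Psmb6 was called and Psmb5 and Psmb7 were not. Psmb5 averaged 5106 ± 456 in mdx and 4359 ± 391 in control (log2 change 0.21, limma adjusted p = 0.0691), and its other probe set stood at -0.07. The brighter Psmb5 probe set passed as higher after quantile normalization (0.32, limma adjusted p = 0.00536), with equal trimmed means, without mdx replicate 5 (0.25, limma adjusted p = 0.0487) and under scaling to the hybridization controls. Psmb6 rose, at 5379 ± 299 in mdx and 4077 ± 473 in control (log2 change 0.38, limma adjusted p = 0.0041). Psmb7 averaged 9562 ± 1410 in mdx and 11007 ± 542 in control (log2 change -0.21, limma adjusted p = 0.117), with a change of 0.41 under scaling to the hybridization controls. It passed as lower without mdx replicate 2 (-0.27, limma adjusted p = 0.0315).

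Each immunoproteasome subunit was then set against the subunit it replaces, within each array, which cancels the array's scaling apart from the added constant. The level of such a difference depends on the probes, and only its shift between the groups can be read. For Psmb8 minus Psmb5 it was between -1.53 and -1.36 in mdx and between -2.71 and -2.31 in control, a shift of 1.07 (SE 0.09). Psmb10 minus Psmb7 lay between -2.98 and -2.05 in mdx and between -3.78 and -3.25 in control, a shift of 1.02 (SE 0.19). The groups did not overlap for either pair. Over the alternatives these shifts ranged from 0.79 to 1.44 for Psmb8 and from 0.80 to 1.28 for Psmb10. Both shifts had an exact two-sided permutation p = 0.00794, the smallest that 5 arrays against 5 can give, and the same value adjusted over the 3 pairs computed. For Psmb9 minus Psmb6 the control arrays gave in effect the added constant minus Psmb6, since Psmb9 was at background there. Its shift of 0.64 therefore has no fixed size: it ranged from 0.22 to 1.38 over the alternatives, and the lowest, under scaling to the hybridization controls, did not pass (exact permutation, adjusted p = 0.127).

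**Figure D3:**
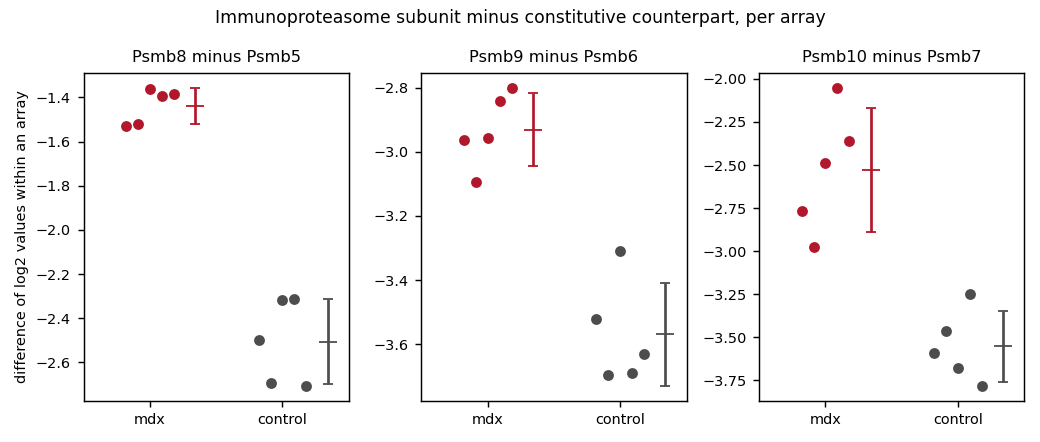
Difference of log2 values within an array between each immunoproteasome subunit and the subunit it replaces, on 5 mdx arrays (red) and 5 control arrays (grey), with mean and SD. All 5 mdx arrays lie above all 5 control arrays in each panel, with shifts of 1.07 for Psmb8, 0.64 for Psmb9 and 1.02 for Psmb10, and the control points of Psmb9 rest on values at background.

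The rest of the proteasome showed calls in both directions. Of 14 genes of the constitutive 20S core 2 rose, Psma4 (0.40) and Psmb6, 3 fell, Psma3 (-0.26), Psmb2 (-0.23) and Psmb4 (-0.23), and 9 did not pass. The Psmb4 call was lost when any of 7 single arrays was left out, with values of -0.24 to -0.19, and that of Psmb2 without control replicate 2 (-0.22). By gene, 16.1% of all genes tested were called higher and 18.6% lower. After quantile normalization 4 of these 14 were higher and 0 lower, and under scaling to the hybridization controls 13 were higher and 0 lower, so no direction of the core as a whole can be given. Of 19 genes of the 19S regulator, which unfolds tagged proteins, 2 rose and 3 fell, with Psmd11 at -0.92, Psmd8 at -0.43, Psmd4 at -0.32 and Psmd5 at 0.49. Psmd10 was at background on all 5 control arrays and on 1 mdx array, and was at least 1.74-fold higher in mdx. Since Psmd10 passed the filter on low values mainly through its mdx arrays, its rise was in part given by that filter. The other probe sets of Psmd11 gave smaller changes, -0.40 and -0.33, and the second of these did not pass. Under scaling to the hybridization controls 9 of the 19 genes were higher and 0 lower, the signs of Psmd8 and Psmd4 turned, and Psmd11 did not pass (-0.32, limma adjusted p = 0.0651).

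Among other caps and assembly factors, 1 of 6 genes fell, beside 18.6% of all genes tested. It was Psme4 (-0.52), which builds the PA200 cap. Its sign also turned under scaling to the hybridization controls, which gave 3 higher and 0 lower. Psme1, the partner chain of Psme2 in the interferon-inducible cap PA28, averaged 1383 ± 161 in mdx and 1267 ± 154 in control and did not pass (log2 change 0.10, limma adjusted p = 0.452). Psme3, which forms a related nuclear cap, stood at 0.27 (limma adjusted p = 0.247), and Pomp, the chaperone of proteasome assembly, at -0.09 (limma adjusted p = 0.48). Psmg2, from the same list, did not pass either (-0.10).

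Genes of folding and peptide supply in the endoplasmic reticulum, listed here as partners of class I, moved upward where they were called. The list is not limited to genes that serve class I alone, so its count is not a measure of class I folding. Of 12 tested genes 7 rose and 0 fell, with a median log2 change of 0.43 beside -0.04 over all genes tested. Of all genes tested 16.1% were called higher. Pdia3, the oxidoreductase of the peptide-loading complex, averaged 1324 ± 202 in mdx and 740 ± 153 in control (log2 change 0.61, limma adjusted p = 0.00137). Pdia6 rose by 0.92, the chaperone Hsp90b1 by 0.80, the translocon channel Sec61a1 by 0.69 and the glucosidase Ganab by 0.53. Other probe sets gave smaller changes, 0.53 for Pdia6, with overlapping groups, and 0.35 for Sec61a1. A further Pdia6 probe set was mostly at background and was not tested. Ganab was at background on 4 control arrays and passed the filter on low values mainly through its mdx arrays. Its rise was thus in part given by that filter. Canx, the calnexin that folds new heavy chains, did not pass, at 0.05.

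Relatives of the classical heavy chains were mixed. Of 9 tested genes 3 rose and 1 fell, with a median of 0.02, against 6 higher and 0 lower under scaling to the hybridization controls. The shares over all genes tested were 16.1% higher and 18.6% lower. H2-Q4, a non-classical chain, averaged 2816 ± 441 in mdx and 832 ± 174 in control (log2 change 1.40, limma adjusted p = 2.98e-06), by a family probe set. H2-Bl rose by 0.65, also by a family probe set, and Hfe, a class I-like chain that regulates iron uptake, by 0.42. H2-M9 fell by 0.42 (limma adjusted p = 0.0456), a call that was lost under several alternatives, including equal trimmed means. Fcgrt, the class I-like receptor that carries IgG, did not pass, at 0.22, though it did without control replicate 4 (0.31, limma adjusted p = 0.0113).

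Of 15 tested genes of interferon gamma signalling and class I regulation 3 rose and 1 fell, with a median of 0.14. Over all genes tested 16.1% were called higher and 18.6% lower. Under scaling to the hybridization controls 11 were higher and 0 lower, with a median of 0.58. The transcription factors Irf7 and Irf9 rose by 0.31 and 0.50 and the receptor chain Ifnar2 by 0.45. The rise of Irf9 was lost without mdx replicate 1 and with no filter. The kinase Jak2 fell by 0.39, a call lost under scaling to the hybridization controls (-0.036). Irf1, a factor known to act on class I and immunoproteasome genes, averaged 1478 ± 76.1 in mdx and 1268 ± 44.9 in control, without overlap, but did not pass (log2 change 0.17, limma adjusted p = 0.0658). It passed with no filter (limma adjusted p = 0.00614), with equal trimmed means (0.0356) and under scaling to the hybridization controls (0.000554). Ifng itself was not tested, with mean intensities of -12.3 in mdx and 45.9 in control, both below the background level.

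Class II genes, which present peptides from outside the cell on professional presenting cells, were mostly higher in mdx. Of 8 tested genes 7 rose, with a median of 2.26, among them H2-Aa (3.65), Ctss (3.63), Cd74 (2.80), H2-Ab1 (2.42) and H2-Eb1 (2.10). The share of all genes tested that were called higher was 16.1%. Of 6 tested receptors that read class I, 1 rose, which is near that share of 16.1%. It was Pirb, an inhibitory receptor of myeloid and B cells (0.46). Klrk1 (0.47), Klra7 (0.24), Klra3 (0.15) and Klrd1 (0.09) did not pass. Klrk1 passed without mdx replicate 5 (0.64) or control replicate 1 (0.63), and 5 of the 6 were higher under scaling to the hybridization controls. Cd8a and Cd8b1, the chains of the killer T cell coreceptor, were below background in both groups.

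**Figure D4:**
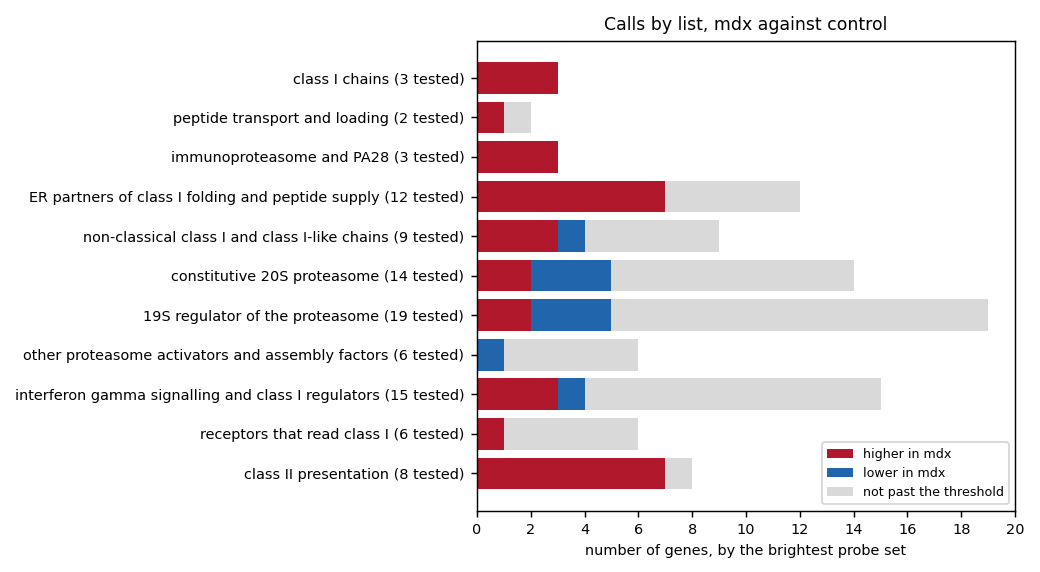
Number of genes called higher in mdx (red), called lower (blue) or not past the threshold (grey) for each list, mdx against control, each gene by its brightest probe set. All 7 called class II genes and all 7 called genes of folding and peptide supply are higher, while the constitutive 20S and 19S lists hold calls in both directions.

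Markers of other cells moved beside the class I genes. For the marker counts here and below, the shares over all genes tested were 16.1% higher and 18.6% lower. All 11 tested macrophage markers rose, led in brightness by Lyz2 (3.37), C1qc (3.30) and C1qa (2.46), and the summed level of 12 markers was 47181 to 62112 in mdx and 4489 to 8587 in control. Itgam, a defining marker, stayed at background in both groups. Of 8 fibroblast markers 6 rose and 2 fell, with sums of 73383 to 86030 in mdx and 43068 to 54039 in control. Col3a1 (2.26) and Col1a1 (1.43) rose and Dcn fell (-0.34). The Dcn call was lost when any of several single arrays was left out. Dcn passed as higher after quantile normalization (0.14, limma adjusted p = 0.047) and under scaling to the hybridization controls (0.29, limma adjusted p = 0.0404). The part of macrophages, fibroblasts and other cells in the class I and immunoproteasome changes was not tested. In whole muscle, fewer cells of a type and less RNA per cell cannot be told apart.

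Markers of T and NK cells gave 0 rises and 2 falls among 4 tested genes, Cd4 (-0.89) and Cd28 (-0.47). Gzmb did not pass (-0.03). Cd3d, Cd3e, Cd3g, Cd8a and Cd8b1 were at or below background. The sum over the 11 markers measured was -981 to -169 in mdx and -176 to 851 in control. Of these markers 7 did not pass the filter, and values below 0 entered the sum. It therefore cannot be read as a level of T or NK cells. Of 5 B cell markers 2 fell, Ighm (-0.65) and Ms4a1 (-0.47), although other Ighm probe sets ranged from -2.04 to 0.45. Cd79b did not pass (-0.18). The B cell sums were 4369 to 5401 in mdx and 6866 to 11356 in control. Of 2 tested dendritic cell markers Itgax, which macrophages share, rose (0.80) and Flt3 fell (-0.51), with its other probe set at 0.15. Cd83 was not tested, and all its control arrays were at background. The Flt3 call was lost when any of 7 single arrays was left out, among them mdx replicate 2 (-0.42) and control replicate 1 (-0.46). The Cd4 values in mdx were at background on 4 of 5 arrays, as were those of Cd28. Both genes passed the filter mainly through their control arrays, so their falls were in part given by that filter. The Cd4 call was lost without mdx replicates 1 and 5 together (-0.77, limma adjusted p = 0.0567). The dendritic cell sums were 1787 to 2844 in mdx and 1610 to 2049 in control. Of 8 endothelial markers 2 fell and 0 rose, with sums of 4979 to 6290 in mdx and 6793 to 8155 in control. Flt1 fell (-0.61), and Emcn did not pass (-0.18). Cdh5 did not pass on all arrays (-0.35), though it did without control replicate 1 (-0.44). The falls of Cd28, Ighm, Ms4a1 and Flt1 were lost under scaling to the hybridization controls, which gave 1 endothelial marker higher and 0 lower.

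The labelled tissue showed in its fibre genes, since 9 markers of skeletal muscle fibres summed to 175704 to 259672 in mdx and 221912 to 359380 in control. Dmd averaged 188 ± 33.7 in mdx and 797 ± 147 in control (log2 change -1.05, limma adjusted p = 6.54e-06). Fibre markers were lower in 7 of 9 genes, among them Tnnt3 (-0.53), Casq1 (-0.61) and Pvalb (-0.45), and the signs of all 3 turned under scaling to the hybridization controls. Under that scaling 0 of the 9 genes were called, and after quantile normalization 2 were lower, with a median of -0.09.

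Within mdx the arrays did not rank alike for all genes. mdx replicate 3 or 5 was the highest array for 7 of 7 class I chain probe sets, and replicate 4 the lowest for 3 of them. For the 4 tested probe sets of transport and loading replicate 4 was the highest for 3, and for the 3 immunoproteasome subunits replicate 4 was the highest for 2 and replicate 5 for 1. mdx replicate 1, whose trimmed mean of 723 was below the 801 of every other array, was the lowest for 6 of the 14 tested probe sets, those of Tap1, Psmb8 and Psmb10 and 1 each of H2-K1, H2-D1 and Tapbp. Without replicates 1 and 5 together, 11 of 14 tested probe sets were called, against 10 on all arrays.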

How the data were processed

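Total RNA from 5 mdx and 5 control gastrocnemius samples was measured on 1 array each. The authors deposited linear intensities, 1 per probe set and array. Software, background correction and scaling are not given in the sources used here. In the table, means trimmed by 2% at each end lay within 8.73% of their average, and 19.7% to 23.8% of the values on an array were below 0. The deposited scaling was kept.

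Control probe sets (66) were left out. Genes were named through the platform annotation, which gave 1 gene for 10833 probe sets, several for 396 and no gene for 1193. Symbols were checked by gene number against RefSeq (GRCm38.p6), which changed 0.

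Negative values were replaced by 0 before log2(intensity + 373), the constant being the root mean square of the 27483 values below 0. A few strongly negative values raise it, so a second level, 157, from their median, served as background level and as an alternative added after seeing the data. Probe sets above 134, the 40th percentile, on at least 5 arrays were fitted with limma 3.58.1 in R 4.3.3 (variance trend, two-sided). The script was tested on simulated data.

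A planned comparison of Psme2 with Psme3 was not run. The members and lists were chosen with earlier results of these data known. Text names every member probe set, up to 5 genes per list with the smallest p, the partners Psmb5, Psmb6, Psmb7, Psme1 and Psme3, Dmd, and up to 3 brightest genes per marker list. Some members of a count of 5 or fewer, Canx, Ifng, Itgam and the Cd3 and Cd8 chains, were named beside these after their values were seen.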

Additional observations from a re-analysis of the deposited data

Results flagged for a closer look

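For Psmb10, control replicate 4 read 810 against 498 to 582 on the other control arrays, and without it the log2 change was 0.89 (limma adjusted p = 0.000606). For Psmb9, control replicate 3 read -360 against -90.9 to 0.41. It entered the test as 0, like the other negative values, so leaving it out says nothing about the Psmb9 result. In both cases the array stood far from the other 4 by Dixon's ratio. Chance flags about 1 in 20 groups, and 166 groups of 5 arrays were examined, of which 15 stood out.

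Control replicate 1 stood apart for 6 genes outside the class I and immunoproteasome list. It read 2076 for Hsp90b1, 2291 for H2-Bl, 3493 for Psma4, 2293 for Cd74, 1056 for Cd4 and 9531 for Ighm. Among the other control arrays, replicate 4 read 1857 for Fcgrt, replicate 3 read -227 for Psmd10 and replicate 2 read 471 for Klra7. Among the mdx arrays, replicate 4 read 3189 for Psme4, replicate 1 read 8887 for H2-Aa and 2910 for Ighm, and replicate 5 read 1639 for Flt3.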

How the results depend on the processing

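The 14 tested probe sets of the class I and immunoproteasome genes gave 306 values under the alternatives run, of which 0 changed sign, 0 lost a call and 9 gained one, all of Tapbp or the dim H2-K1 probe set. With the filter of a mean above the 60th percentile, 440, Psmb9 and the dim H2-K1 probe set were not tested. They gave no value there, so the Psmb9 call was absent under that filter. The count called higher was 10 to 11, and 14 under scaling to the 9 hybridization controls, which moved the median of all genes from -0.04 to 0.36 and the calls to 3527 higher and 125 lower, against 1202 and 1352. Tap1 was the weakest call, with an adjusted p of 0.0472 at most when an array was left out. With the replicate number as a block, Psmb8 against Psmb5 (1.07), Psmb9 against Psmb6 (0.64) and Psmb10 against Psmb7 (1.02) have the same shifts by construction, and the exact sign-flip p was 0.0625, the smallest that 5 pairs can give. The block gave 2238 calls over all probe sets against 2554, and 10 among the members. The same-numbered arrays share only a number: their deviations from the group means correlated at -0.16 to 0.04 across probe sets, and 0 arrays correlated best with their own number. Psmb9 against Psmb6 stood at 0.22 (adjusted p = 0.127) under scaling to the hybridization controls. Under that scaling the following changed sign: Psma3 (0.35), Psmb2 (0.35), Psmb4 (0.38), Psmd8 (0.17), Psmd4 (0.28), Psme4 (0.053), Pomp (0.51), Psmb7 (0.41), Tnnt3 (0.11), Casq1 (0.0196), Pvalb (0.18) and Dcn (0.29). After quantile normalization Pvalb (0.0259) and Dcn (0.14) did so. A value that passed the threshold under neither setting was counted as unchanged. Leaving out 1 array moved the shifts of the 3 pairs to between 1.02 and 1.12, 0.60 and 0.70, and 0.90 and 1.14. Over all alternatives run the ranges were wider, 0.79 to 1.44, 0.22 to 1.38 and 0.80 to 1.28.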
